A study of Homo sapiens with 3 samples.

Results

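Shared intergenic CHD8 and TRRAP peaks were CHD8 peaks on chromosomes 1 to 22 and X that shared at least 1 bp with a TRRAP peak. They also lay away from GENCODE gene starts and had summits outside coding genes, but could lie in noncoding genes. Each such peak touched no window of 1 kb on either side of the start of any GENCODE 44 gene of any biotype, and its summit lay outside every protein-coding gene body. The rule selected on measured values, since both lists of peaks entered it, and the overlap of the proteins at these sites is a description. It found 1938 peaks of the 23393 in the CHD8 list, 23006 of which lay on these chromosomes. Overlap with TRRAP held for 48% of the 23006 peaks and for 47.4% of the 4092 intergenic ones, so the intergenic share was close to that of the whole list. The peaks came from wild-type neural stem cells that had been made from the established human embryonic stem cell line H9. Chromatin was crosslinked with disuccinimidyl glutarate, which links proteins to each other, and then with formaldehyde. Antibodies against CHD8, TRRAP or control IgG were used, with 1 library each. The IgG library was not analysed here, and no p-value can be given.

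CHD8, 1 of the CHD remodelers, uses ATP to move nucleosomes, and mutations in its gene are a known cause of autism spectrum disorder. TRRAP is a very large scaffold protein of the PIKK kinase family that lacks kinase activity. It recruits the SAGA and TIP60 histone acetyltransferase complexes to DNA-bound transcription factors. Regulatory DNA far from gene starts includes enhancers, whose activity in neural stem cells is commonly tied to SOX, RFX, POU and basic helix-loop-helix factors. Sequence near centromeres and at chromosome ends is rich in repeats, where short reads have many possible places of origin.

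The sequences below show the kinds of sites that made up the set. Each runs 5′ to 3′ on the plus strand of GRCh38 and holds a CHD8 summit with 50 bases on each side. Capitals mark the consensus word of the factor family named, or the repeat unit. The first 6 are single-copy sites away from repeats, and the sites highest in the CHD8 list with the word inside this stretch were taken, a choice made after their values were seen. They carry the SOX word ACAATGG, the RFX word GTTGCCATG, the TEAD word ACATTCC and the E-box CACGTG, each on either strand.
SOX word 5716 bp upstream of the SOCS3 start, chr17:78365743-78365843: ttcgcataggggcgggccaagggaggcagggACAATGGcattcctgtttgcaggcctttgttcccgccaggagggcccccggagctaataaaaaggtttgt
SOX word 54859 bp upstream of the EEF1A1 start, chr6:73580396-73580496: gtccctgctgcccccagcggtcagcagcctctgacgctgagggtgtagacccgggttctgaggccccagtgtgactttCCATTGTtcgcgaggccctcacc
RFX word 195164 bp upstream of the NTMT1 start, chr9:129413670-129413770: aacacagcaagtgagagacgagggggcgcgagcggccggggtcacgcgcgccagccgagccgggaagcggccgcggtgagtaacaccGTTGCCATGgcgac
RFX word 230336 bp downstream of the VRK1 start, chr14:97027590-97027690: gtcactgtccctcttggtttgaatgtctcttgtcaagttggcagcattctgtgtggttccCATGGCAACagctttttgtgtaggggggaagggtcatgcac
TEAD word 20164 bp downstream of the NUAK2 start, chr1:205301531-205301631: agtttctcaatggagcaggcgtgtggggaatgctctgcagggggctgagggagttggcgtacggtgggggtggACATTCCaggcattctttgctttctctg
E-box 69937 bp upstream of the EP300 start, chr22:41022605-41022705: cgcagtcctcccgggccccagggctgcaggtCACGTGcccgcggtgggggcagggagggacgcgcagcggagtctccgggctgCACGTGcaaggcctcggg

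The other 2 sequences show repeats. The first lies at the glycine tRNA gene TRG-TCC2-2 and holds the conserved second box of the tRNA gene promoter, GGTTCGANT, on the minus strand. The second lies beside the centromere region of chromosome 16, as defined below, and holds 3 copies of the word of the simple satellites, GGAAT.
tRNA gene, chr1:161447512-161447612: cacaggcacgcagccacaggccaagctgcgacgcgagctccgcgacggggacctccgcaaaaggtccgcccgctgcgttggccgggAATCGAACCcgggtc
Satellite, chr16:46390220-46390320: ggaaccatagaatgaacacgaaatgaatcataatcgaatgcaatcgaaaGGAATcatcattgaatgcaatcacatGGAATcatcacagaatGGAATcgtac

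The 1938 peaks fell into 4 classes by place and by copy number. For the copy number of a summit, each 32-base word within 50 bp was counted over the reference, and the median count was taken. Dispersed single-copy peaks numbered 998, or 51.5% (Wilson 95% interval 49.3 to 53.7), and covered 433 kb. Peaks within 2 Mb of a centromere region numbered 804, or 41.5% (39.3 to 43.7), and covered 517 kb. Such a region is a run of multi-copy sequence with adjoining assembly gaps and can be far wider than the centromere. That of chromosome 9 ran over chr9:43000001-68300000. Peaks called near centromeres are those in or near these regions. Only 32 peaks (1.65%, 1.17 to 2.32) lay within 100 kb of a chromosome end, and 104 (5.37%, 4.45 to 6.46) had multi-copy summits elsewhere. These intervals cover counting error only, and peaks are not replicates. Raising the end distance to 1 Mb gave an end share of 3.41%, and keeping only the top 50% of both lists by rank left 917 peaks, of which 348 were dispersed.

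Both repeat classes near centromeres and chromosome ends overlapped TRRAP more often than dispersed sites. Among intergenic CHD8 peaks of the same class, 84.1% near centromeres, 82.1% at chromosome ends, 44.4% with multi-copy summits elsewhere and 34.9% at dispersed single-copy sites shared a base with TRRAP. The rule used this overlap, so these shares only describe the lists.

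Chromosomes differed most in the repeat classes. Chromosome 9 held 133 peaks in or near its centromere region beside 44 dispersed ones, and chromosomes 1 and 10 held 90 each in or near theirs. Chromosome 2 had the most dispersed peaks, with 116, and chromosome 1 had 102. Densities were taken per 100 Mb between the first and last assembled base, with any gaps and centromere regions in between included. Dispersed peaks were densest on chromosomes 19 (80.3), 22 (79.4) and 17 (68.5), which are known to be rich in genes. They were sparsest on X (7.05) and chromosome 4 (11.6).

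**Figure D1:**
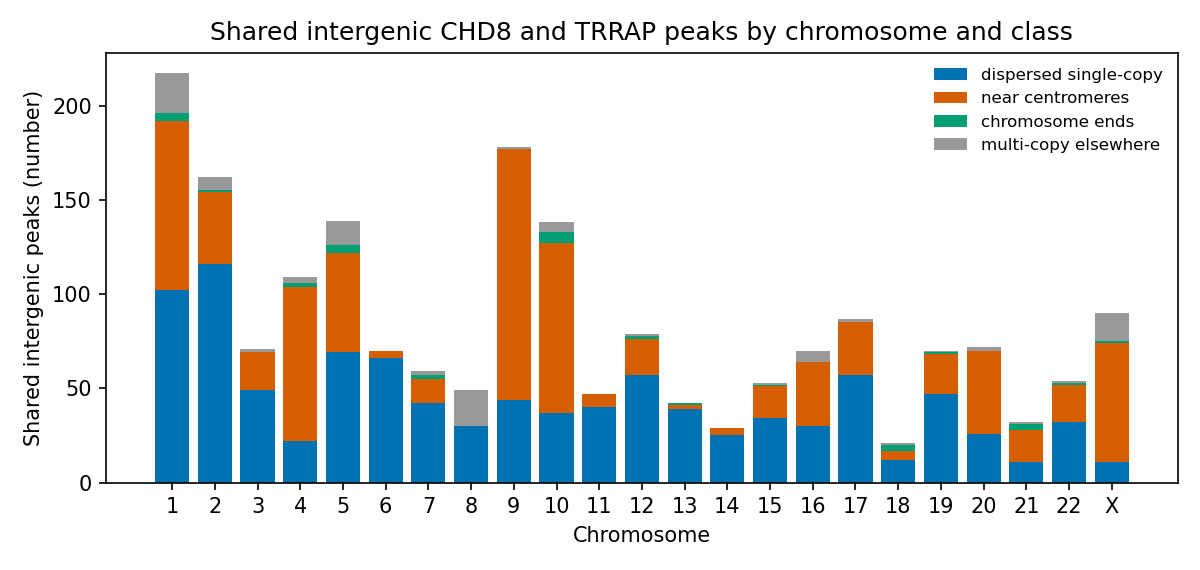
Number of shared intergenic peaks (vertical axis) on each chromosome (horizontal axis), stacked by class. Chromosome 9 reaches its total of 178 mainly through 133 peaks in or near the centromere region, whereas chromosome 2 has 116 dispersed single-copy peaks of 162.

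The strength of a peak is given by the fold, the linear ratio of signal over background that the authors deposited, and is read here only within each list. Dispersed peaks had a median CHD8 fold of 9.75 (25th to 75th percentile 7.98 to 12.4) and a median TRRAP fold of 8.65 (7.21 to 10.6). Near centromeres the medians were 11.1 for CHD8 and 12.7 for TRRAP, and at chromosome ends they were 26.5 and 16.5. The strongest 1% of the CHD8 list, 233 peaks, held 52 members, of which 40 lay near centromeres, 11 at chromosome ends and 1 at a multi-copy summit elsewhere. None was dispersed, and the other peaks in this 1% were not members. Of the strongest 1% of the TRRAP list, 147 peaks, 60 were paired with members. They belonged to 66 members, of which 58 lay near centromeres, 7 at chromosome ends and 1 was dispersed.

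Across peaks, CHD8 and TRRAP folds ranked alike near centromeres and at chromosome ends, and less so at multi-copy summits elsewhere and at dispersed sites. Spearman's rho was 0.86 over 804 peaks near centromeres, 0.88 over 32 at chromosome ends, 0.36 over 104 with multi-copy summits elsewhere and 0.28 over 998 dispersed peaks. The points share both libraries and the peak caller, the range of folds was far wider near centromeres and at chromosome ends, and no test is attached to these coefficients.

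**Figure D2:**
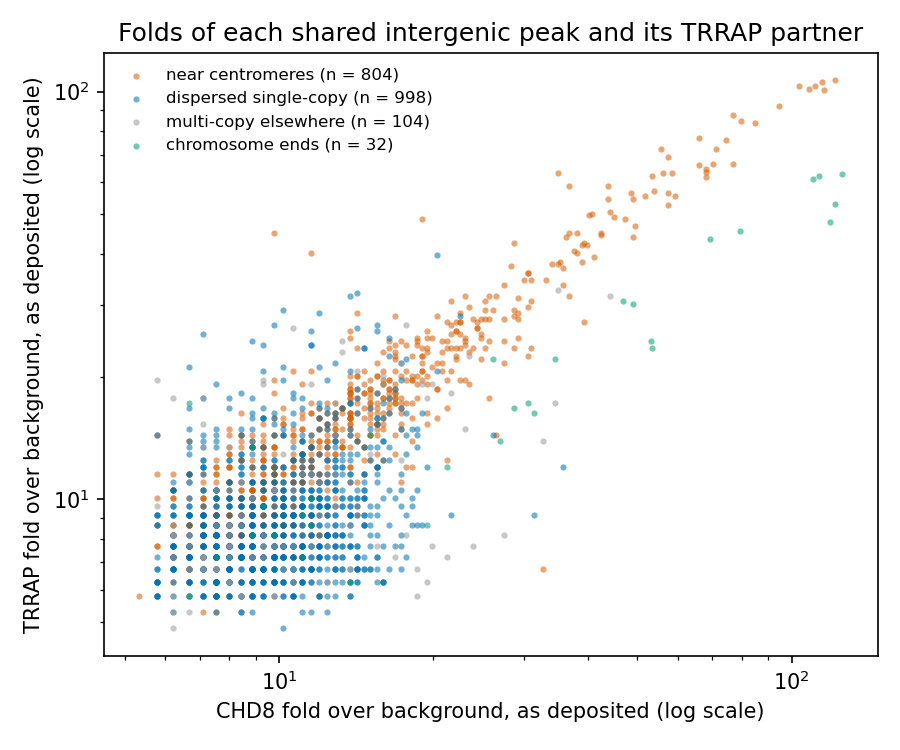
CHD8 fold (horizontal axis) and TRRAP fold of the overlapping peak (vertical axis) for all 1938 shared intergenic peaks, as deposited, both on log scales, with 1 point a peak coloured by class. Peaks near centromeres extend along a diagonal to a CHD8 fold of 121.6 with a TRRAP fold of 106.6, chromosome ends lie below it, and dispersed peaks reach at most 35.8 and 39.7.

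At dispersed sites both proteins peaked close together. The median distance between CHD8 and TRRAP summits was 53 bp (quartiles at 24 and 103 bp), and 741 of 998 pairs lay within 100 bp. The rule asked for overlap, so the widths of the peaks limited this distance. Its median was 62.5 bp for single-copy shared peaks inside coding genes and 91 bp for those at coding starts. CHD8 peaks had a median width of 373 bp and their TRRAP partners 229.5 bp, and a median of 61.1% of the CHD8 peak was covered. Near centromeres the median summit distance was 17 bp. The overlap of 1 bp that the rule asked for was rarely decisive, since 2 members shared 10 bp or less.

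The peaks near centromeres were repeated and chained together. Their median copy number was 79.5, but the centromere regions were themselves defined by multi-copy sequence, so a high value follows in part from the class. Their median GC content was 38.8%, close to the 39.3% of intergenic sequence in general and below the 58.2% of dispersed sites. At least 5 copies of the satellite word within 100 bp of the summit were found in 320 of 804 (39.8%, 36.5 to 43.2), and the CENP-B box, the binding site of a centromere protein in alpha satellite DNA, in 183 of 804 (22.8%, 20.0 to 25.8). Intergenic sequence in general was sampled by 140395 windows of 201 bp laid every 10 kb, called grid windows below, where the shares were 0.0306% and 0.00641%. The strongest of these peaks, at chr3:93470260-93470894, had folds of 121.6 for CHD8 and 106.6 for TRRAP with a copy number of 1. The next 4 in the CHD8 list all lay on chromosome 16, with folds of 107.9 to 115.4 for CHD8 and 100.9 to 105.6 for TRRAP, and 1 of them was 11464 bp wide, at chr16:46382145-46393608. Such a width was uncommon, as the median was 295.5 bp.

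Members were chained into stretches when neighbours lay within 100 kb. The 17 stretches of 10 or more members held 549 peaks. The longest chain by count had 125 members in 135 kb at chr9:60552898-60687689, with a median CHD8 fold of 8.43, a median copy number of 1144 and no satellite-rich summit. The next had 55 members at chr10:41830826-41915172, of which 52 were satellite-rich. Next came 2 stretches of 50 members each. The one at chrX:62463121-62503734 had a median copy number of 1558 and no satellite-rich summit, and in the one at chr4:49091641-49156605, with a median copy number of 22.5, all 50 were satellite-rich. The part of read placement among copies in these peaks was not tested.

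Chromosome ends held the highest CHD8 fold but not the highest TRRAP fold. The highest fold of the whole CHD8 list, 125.5, belonged to a member at a chromosome end. Its TRRAP partner had a fold of 62.6, the highest at the ends and below the 106.6 reached near centromeres. The 4 next ends were chr5:9911-11882, chr10:9909-10525, chrX:156030147-156030843 and chr18:80262818-80263359. Their CHD8 folds ran from 110.1 to 121.6 and their TRRAP folds from 47.8 to 62.2.

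Multi-copy members away from both regions were led by chr20:61045948-61046269, upstream of the cadherin gene CDH4, with folds of 44.2 for CHD8 and 31.6 for TRRAP. They included 16 summits within 1 kb of a tRNA gene in the RefSeq annotation of GRCh38.p14. RefSeq starts did not enter the rule, which used GENCODE gene starts only. Transfer RNA genes are transcribed by RNA polymerase III from a promoter inside the gene. Over all classes, 38 members lay within 1 kb of a tRNA gene, of which 19 were dispersed (1.90%, 1.22 to 2.95). The share was 2.47% (1.85 to 3.27) among dispersed intergenic CHD8 peaks without TRRAP and 0.0392% among grid windows.

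The tRNA genes with the strongest members sat in 1 cluster on chromosome 1. The peak at chr1:161453649-161456695, beside the glutamate tRNA gene TRE-CTC1-3, had folds of 23.01 for CHD8 and 14.9 for TRRAP. Its neighbours at TRE-CTC1-4 and TRG-TCC2-2 had CHD8 folds of 19.9 and 19.0 and TRRAP folds of 19.2 each. The spaced pair of tRNA promoter words, GCNNAGNNG and GGTTCGANT with starts 20 to 80 bp apart, was found in 4 members, all at annotated tRNA genes. Of 443 RefSeq tRNA genes, 47 had a member within 1 kb. Counting summits of any kind within 1 kb, 186 had a CHD8 summit, 103 a TRRAP summit and 94 both. The share of all genes with such a summit was not set beside these counts, so they do not show whether tRNA genes stand out.

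The 5 strongest dispersed members lay 1679 to 20582 bp from the nearest annotated gene start of any kind, and their nearest coding genes are given here. The highest in the CHD8 list lay at chr19:14247753-14249559, 42608 bp upstream of the start of ADGRL1, a neuronal adhesion receptor gene, with folds of 35.8 for CHD8 and 11.99 for TRRAP. The next lay at chr1:36401029-36401607, 3272 bp upstream of LSM10, a gene of histone pre-mRNA processing, with 31.4 and 9.12. The third lay at chr11:65418672-65419663, 32562 bp from the start of FRMD8, with 26.1 and 14.4. At chr17:47990954-47991824, near CDK5RAP3, the folds were 22.6 and 28.2, and at chr1:234918581-234918909, 210098 bp from TOMM20, they were 21.7 and 9.12. The order by CHD8 was not the order by TRRAP in these 5.

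Ranked by the worse of both ranks, the CDK5RAP3 site came first and a site 13705 bp downstream of the start of TRMT61A, a tRNA methyltransferase gene, came second. The latter, at chr14:103542561-103543445, had the highest TRRAP fold of any dispersed member, 39.7, with a CHD8 fold of 20.4. The remaining 8 of the best 10 were nearest NUAK2, a kinase gene, CRABP1, which encodes a retinoic acid binding protein, TEX44, EEF1A1, a translation elongation factor gene, ELOVL5, IRF2BPL, PAX8 and CBX7, a Polycomb gene. Their CHD8 folds ran from 17.3 to 20.4 and their TRRAP folds from 14.9 to 22.02.

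Dispersed members lay nearer to gene starts than intergenic sequence in general. The nearest start of any gene was a median of 11562 bp away and the nearest coding start 42935 bp away, against 26014 and 146150 bp for grid windows. For dispersed CHD8 peaks without TRRAP the median distance to a coding start was 47428 bp. The nearest start belonged to a lncRNA for 426 members (42.7%), to a coding gene for 288 (28.9%) and to a processed pseudogene for 139 (13.9%). Members upstream of the nearest coding start made up 61.8% (58.8 to 64.8), close to the 64.1% of grid windows. Summits inside a noncoding gene numbered 313 (31.4%, 28.6 to 34.3), close to the 29.7% of grid windows.

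Some of these sites are starts in other annotations. A further GENCODE transcript start lay within 1 kb of 53 summits, and a RefSeq start lay within 1 kb of 53. Neither was found for 912 of the 998 (91.4%, 89.5 to 93.0), where RefSeq starts were known for chromosomes that hold 968 of the members. A site with another annotated start, chosen after values were seen, lay 3 bp from a start of SILC1, a lncRNA, at chr2:5981774-5982161. There both summits fell on the same base and the folds were 15.1 and 9.60. The members farthest from any gene start were chr6:9456407-9456759 at 294744 bp, chr5:110268340-110268559 at 245483 bp and chr3:64945217-64945464 at 229575 bp, with CHD8 folds of 8.87 to 11.5. The members nearest the limit of 1 kb lay 1003 bp from the SSBP4 start (folds 13.7 and 10.1) and 1016 bp from the SHC3 start (11.1 and 7.69). These distances were measured from the edge of the peak. Peaks 996 bp from the SKIL start (14.2 and 7.21) and 985 bp from a lncRNA start (6.22 and 5.78) fell short of the limit and were not members.

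CpG-rich windows were less common at dispersed members than at starts and more common than in other intergenic sequence. A CpG-rich window had a GC content of at least 50% and a CpG ratio, observed over expected, of at least 0.6 within 100 bp of the summit. Such windows made up 285 of 998 members (28.6%, 25.8 to 31.4), 18.8% (17.1 to 20.7) of CHD8 peaks without TRRAP, 43.3% of shared peaks inside coding genes, 91.9% of shared peaks at coding starts and 1.02% of grid windows. Members exceeded CHD8 peaks without TRRAP by 9.74 percentage points (Newcombe 95% interval 6.46 to 13.1). GC content moved with this difference: among windows of 50 to 65% GC the shares were 16.4% in both sets, with a difference of −0.072 points (−4.03 to 4.08). The median CpG ratio of dispersed members was 0.40.

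CpG-rich members were nearer to genes than the others. Their nearest coding start was a median of 22229 bp away, against 58375 bp for the 713 members that were not CpG-rich, and their median CHD8 width was 452 bp against 349 bp. The folds differed little, with medians of 10.2 and 9.75 for CHD8 and 9.12 and 8.17 for TRRAP. The CpG-rich member highest in the CHD8 list, chosen after values were seen, lay at chr1:54488231-54488762, 53648 bp upstream of ACOT11, with folds of 19.5 and 11.99.

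**Figure D3:**
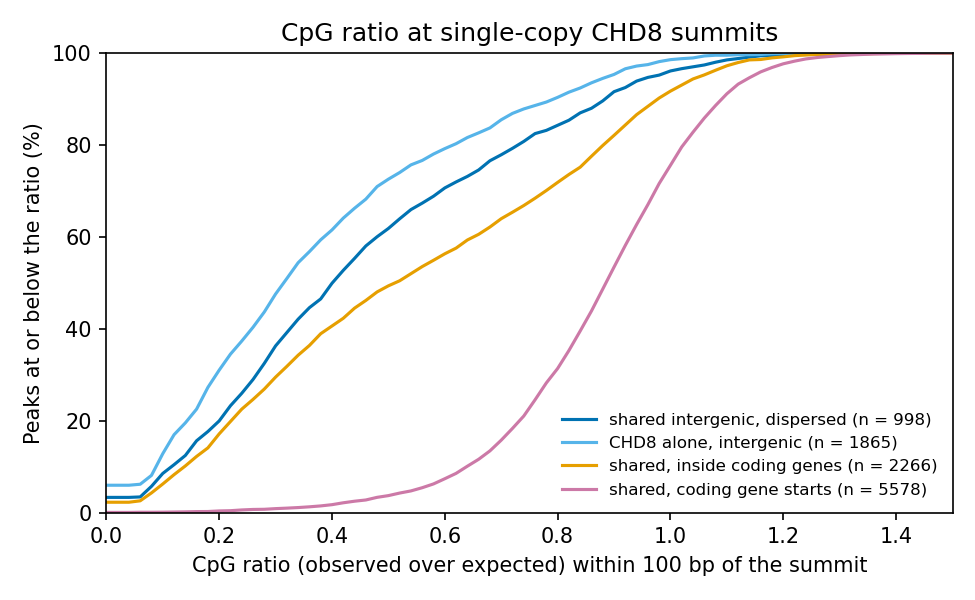
Cumulative share of peaks (vertical axis, %) at or below each CpG ratio within 100 bp of the CHD8 summit (horizontal axis), for 4 sets of single-copy peaks. The curve of the 998 dispersed shared intergenic peaks lies between CHD8 peaks without TRRAP (n = 1865) and shared peaks inside coding genes (n = 2266), and shared peaks at coding starts (n = 5578) lie far to the right.

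Of 16 consensus words searched at dispersed members, 12 were found more often than in grid windows with an interval of the difference above 0, and 2, the NFY and homeobox words, less often with an interval below 0. For POU and NFI the interval included 0. Exact matches on either strand were counted in the 100 bp to each side of the summit, and a match is a description of the letters, not of binding. SOX factors keep neural stem cells in their undifferentiated state, and the SOX word was found in 88 of 998 members (8.82%, 7.21 to 10.7) against 3.30% of grid windows. RFX factors control genes of cilia and of neural patterning, and the RFX word was found in 36 members (3.61%, 2.62 to 4.95) against 0.174% of grid windows. TEAD factors act with the growth regulators YAP and TAZ, and the TEAD word was found in 61 members (6.11%, 4.79 to 7.77) against 2.96%. The word CAGCTG of basic helix-loop-helix factors was the most common of these, in 225 members (22.5%, 20.1 to 25.2) against 6.45%. The AP-1 word TGANTCA, of the FOS and JUN factors, was found in 81 (8.12%, 6.58 to 9.98) against 6.57%, an excess of 1.55 points (0.0076 to 3.41). With 250 bp on each side that excess was 0.58 points and its interval included 0 (−1.58 to 3.01). Against the members' own flanks 1 kb away the AP-1 excess was 2.66 points (0.77 to 4.73). It was 2.15 at the TRRAP summit (0.55 to 4.07) and 2.63 in windows of 50 to 65% GC (0.64 to 5.24).

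The POU and homeobox words, also of developmental factors, were not in excess at members. The POU word ATGCAAAT was found in 1.70% of members and 2.28% of grid windows, a difference of −0.57 points (−1.22 to 0.44). The homeobox word TAATTA was found in 1.90% and 9.17%, a difference of −7.27 points (−7.97 to −6.21). The NFI palindrome was found in 0 of 998 members, for which the Wilson upper limit is 0.383% and the limit of 3 counts in 998 is 0.301%. It was found in only 16 of 140395 grid windows (0.0114%), below both limits, so the count of 0 cannot show a difference from them.

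These differences moved with base composition. In members and grid windows of 50 to 65% GC, the excess of members over grid windows was 7.73 points for SOX (5.47 to 10.6), 4.23 for RFX (2.76 to 6.36), 3.31 for TEAD (1.63 to 5.64) and 9.62 for CAGCTG (6.11 to 13.5). Over all windows the excess for CAGCTG had been 16.1 points. The SOX excess over all windows had been 5.52 points. Within the band the difference was 1.45 points for POU (0.57 to 3.04) and 0.066 for the homeobox word (−0.65 to 1.48).

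Of the 16 words, 5 differed between members and CHD8 peaks without TRRAP with an interval that excluded 0. SOX, RFX, SP and NRF1 were more common at members, and NFY was less common. The SOX word was found in 5.84% (4.87 to 7.003) of the 1865 dispersed CHD8 peaks without TRRAP, 2.97 points less than in members (0.99 to 5.13), and the RFX word in 1.61% (1.13 to 2.29), 2.00 points less (0.80 to 3.43). The difference was 3.02 points for SP (1.35 to 4.89), 1.24 for NRF1 (0.31 to 2.40) and −5.61 for NFY (−8.43 to −2.67). The interval included 0 for the other 11 words, among them TEAD (−1.27 to 2.40), CAGCTG (−1.33 to 5.02) and AP-1 (−1.62 to 2.57). Members had higher CHD8 folds than peaks without TRRAP, with medians of 9.75 and 7.54. Among peaks above the median fold of the CHD8 list, the SOX difference was 5.59 points (1.92 to 8.87) and the RFX difference 2.48 (−0.075 to 4.69). Among those up to the median, the differences were 1.32 (−1.15 to 4.36) and 1.34 (−0.086 to 3.43). The SP difference was 3.13 (0.037 to 5.84) above the median and 3.53 (1.21 to 6.45) up to it. For NRF1 the interval included 0 on both sides of the median. In windows of 50 to 65% GC, the difference was 4.66 points for SOX (1.86 to 7.78) and 2.30 for RFX (0.40 to 4.57). For NFY it was −4.31 there (−8.29 to −0.11), and for CTCF −1.51 (−2.70 to −0.27). The interval in that band included 0 for SP (−0.28 to 3.54) and NRF1 (−0.74 to 1.42).

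Once CpG-rich windows were set aside, the interval of the difference between members and shared peaks inside coding genes included 0 for all 16 words. Among windows that were not CpG-rich, SOX was found in 10.8% of members and 9.89% of shared peaks inside coding genes, with a difference of 0.91 points (−1.81 to 3.82), and RFX in 4.07% and 4.05%, with a difference of 0.017 points (−1.71 to 1.98). Against CHD8 peaks without TRRAP in the same windows, SOX still differed, by 4.06 points (1.58 to 6.81). At coding starts the SOX word was found in 1.52% and the RFX word in 0.843%. Within the members, the SOX word was found in 3.86% of CpG-rich and 10.8% of other windows.

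Most words of promoter factors were also more common at members than in grid windows, and less common than at coding starts. ETS (CCGGAAG) was found in 4.01% of members, 0.360% of grid windows and 13.4% of coding starts. The shares were 2.20%, 0.0321% and 7.85% for NRF1 (GCGCNTGCG), and 6.61%, 0.181% and 19.4% for SP (GGGGCGGGG). They were 0.301%, 0.0548% and 5.41% for YY1 (AAGATGGCG), and 1.80%, 0.107% and 5.72% for CTCF (AGNGGGCGC). The E-box CACGTG, the site of MYC and MAX, was found in 39 members (3.91%, 2.87 to 5.30), in 4.45% of CHD8 peaks without TRRAP, in 7.96% of coding starts and in 1.74% of grid windows. In windows of 50 to 65% GC, the excess of members over grid windows was 0.52 points for the E-box (−0.89 to 2.59), 2.89 for ETS (1.53 to 4.91), 2.80 for SP (1.53 to 4.75), 0.68 for NRF1 (0.21 to 1.88) and −0.17 for CTCF (−0.48 to 0.84). For YY1, found in only 3 of all dispersed members, the excess in that band was 0.066 (−0.10 to 0.96). The E2F word TTTNGCGC was found in 6 members (0.601%, 0.276 to 1.31), against 0.130% of grid windows and 1.83% of coding starts. CCAAT, the NFY word, was found in 15.03% of members, 29.2% of grid windows and 16.2% of coding starts, where the interval of the difference from coding starts included 0 (−3.45 to 1.39).

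**Figure D4:**
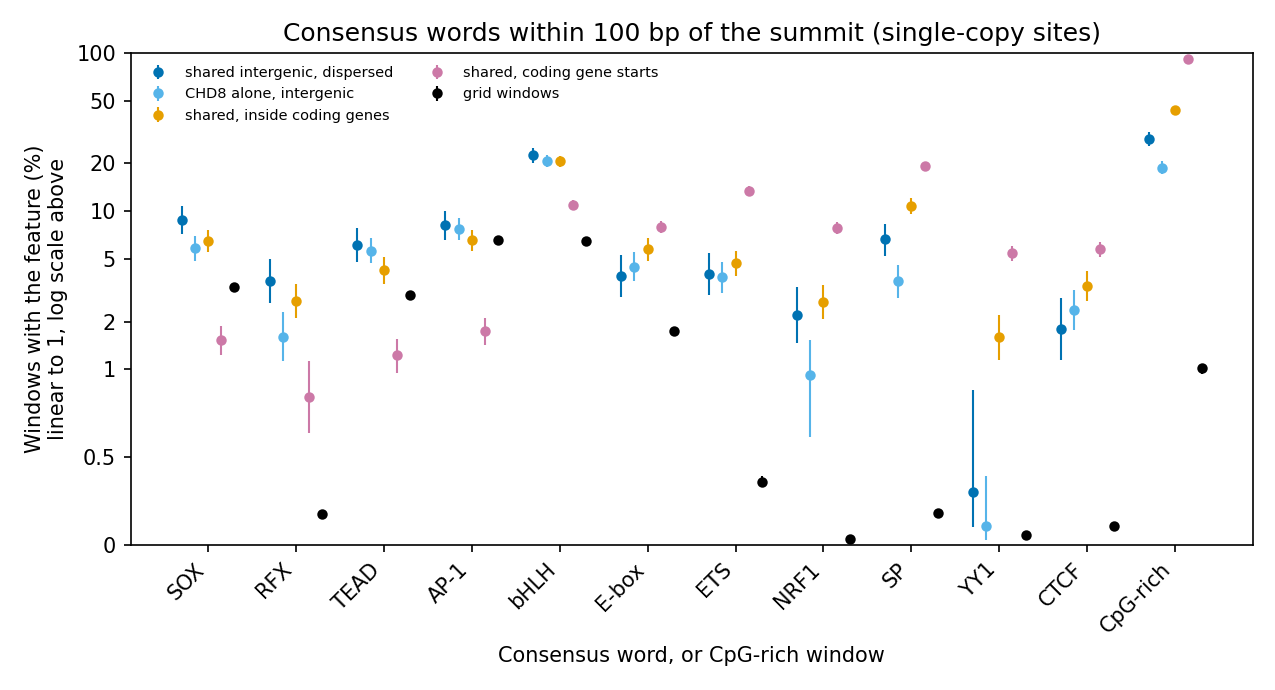
Share of windows with each consensus word, or CpG-rich, within 100 bp of the summit (vertical axis, %, linear to 1 and on a log scale above), for 4 sets of single-copy peaks and for grid windows; bars are Wilson 95% intervals. SOX reaches 8.82% and RFX 3.61% at dispersed shared intergenic peaks, above coding starts at 1.52% and 0.843%, whereas ETS, NRF1, SP, YY1 and CTCF are highest at coding starts.

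The SOX, RFX and CAGCTG words were most common close to the summit. In bins of 50 bp, the SOX word was found in 2.81% and 2.51% of members on the left and right of the summit, against 0.501% and 0.802% in the outermost bins, which end 500 bp away. The RFX word was found in 1.2% on both sides of the summit and in 0.100% and 0 of members in the outermost bins. In CHD8 peaks without TRRAP the SOX word reached 1.77% and the RFX word 0.697% in the bins beside the summit. In the outermost bins of these peaks the SOX word was found in 0.643% and 0.697%. TEAD rose to 1.90% in members and 1.72% in CHD8 peaks without TRRAP. CAGCTG was found in 7.52% and 6.51% of members beside the summit, against 2.71% and 3.31% in the outermost bins. In CHD8 peaks without TRRAP it was found in 6.01% and 6.38%, against 2.68% and 2.52%. AP-1 was found in 2.91% and 1.80% of members beside the summit and in 2.20% in both outermost bins.

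**Figure D5:**
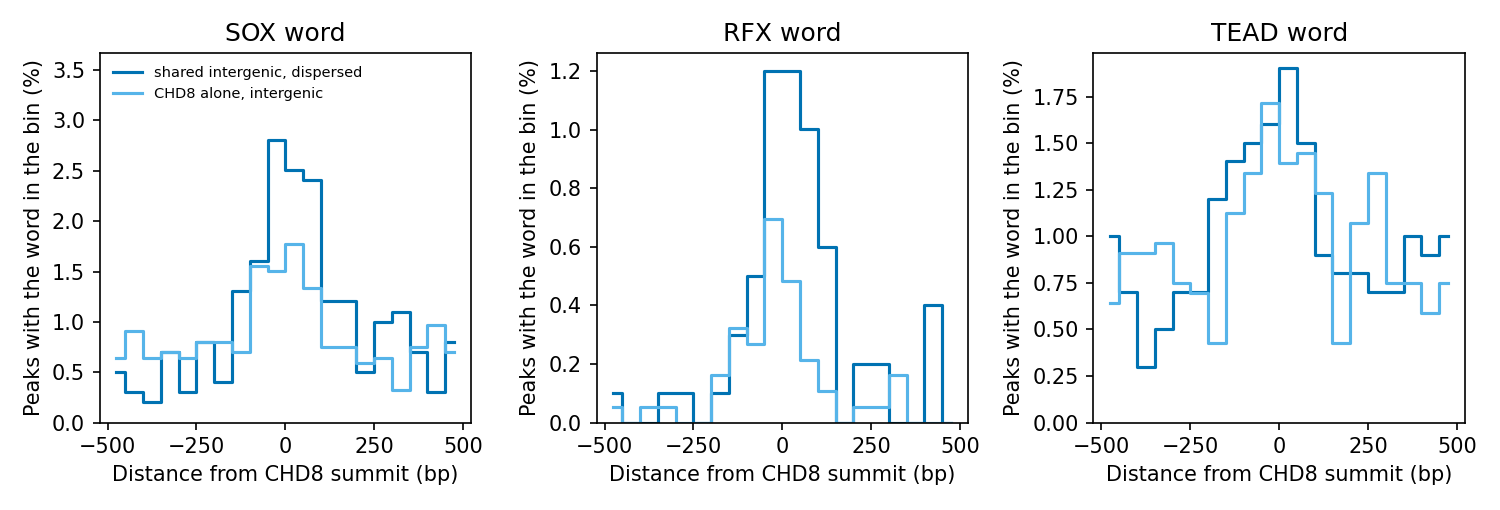
Share of peaks with the SOX, RFX or TEAD word (vertical axes, %) in bins of 50 bp by distance from the CHD8 summit (horizontal axes, bp), for 998 dispersed shared intergenic peaks and 1865 CHD8 peaks without TRRAP. SOX and RFX are highest beside the summit, at 2.81% and 1.2% of the shared peaks, and TEAD reaches like heights in both sets.

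Named sites carry these words. SOX sites high in the CHD8 list, chosen after values were seen, included the member near TOMM20 with a fold of 21.7 and the members near SOCS3, a brake on cytokine signalling, and near EEF1A1 with 17.7 each. RFX sites were nearest CBX7, NTMT1 and PMVK, with CHD8 folds of 15.9 to 17.3 and TRRAP folds of 12.5 to 22.5. The E-box sites highest in the CHD8 list were nearest EP300, which encodes a histone acetyltransferase, MSL1 and UBR2, with CHD8 folds of 13.7 to 17.7 and TRRAP folds of 6.26 to 10.6. The CTCF sites were nearest NTMT1, TOB2 and RTL1, with CHD8 folds of 12.8 to 16.4. The site near NTMT1 held both the RFX and the CTCF word.

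Genes of neural stem cells often had dispersed members in their neighbourhood. Of 50 neural stem cell and patterning factors, 21 (42.0%, 29.4 to 55.8) were the nearest coding gene of at least 1 dispersed member, with 58 members in all. For 30 neuronal differentiation factors the count was 3 (10.0%, 3.46 to 25.6), for 10 cell cycle and growth regulators it was 5 (50.0%, 23.7 to 76.3), and over all 19962 coding genes it was 737 (3.69%, 3.44 to 3.96). Factors of this kind tend to have wide intergenic surroundings, which were counted by the grid. Per 10 Mb of intergenic sequence nearest to the gene, there were 22.9 members for the neural stem cell factors, 4.67 for the neuronal differentiation factors, 62.3 for the cell cycle and growth regulators and 7.11 for all coding genes. For CHD8 peaks without TRRAP the values were 31.6, 15.6, 58.4 and 13.3, so these peaks too were denser around the neural stem cell and the cell cycle lists. The nearest gene is a label of place and not of regulation.

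POU3F3, a transcription factor gene of neural progenitors, had 8 members, the most of the listed genes, followed by MYCN with 7, POU3F2 and NR2F1 with 6 each, and SOX1 and SOX2 with 5 each. The HES1 and CCND1 genes had 4 each, and ID3, ID4, SOX21, NR2F2 and MYC 3 each. The highest in the CHD8 list lay 9870 bp downstream of the start of EN2, a midbrain patterning gene, at chr7:155467711-155468741, with folds of 15.5 and 9.60. At chr2:16166402-16167016, 226228 bp beyond the MYCN start, the folds were 14.6 and 10.1, and at chr2:104790177-104790715, 62827 bp upstream of POU3F3, they were also 14.6 and 10.1. At chr3:194058239-194058640, 77708 bp upstream of HES1, an effector of Notch signalling, they were 14.6 and 13.4. Further members of the first 15 lay near IRX2, SOX1, NR2F1, MYCN, ID3, SOX9, ZIC1 and HES5, with CHD8 folds of 12.4 to 14.2 and TRRAP folds of 5.78 to 14.9.

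Dispersed members were mostly solitary. They formed 746 groups when chained within 100 kb, of which 590 held 1 member, 97 held 2 and 59 held 3 or more. The largest held 11 members in 235 kb at chr9:129334342-129569352, of which 9 were nearest the coding gene NTMT1 and 5 were CpG-rich, and its highest folds were 18.6 for CHD8 and 22.5 for TRRAP. The second held 7 members in 74.8 kb at chr2:104789203-104863954, beside POU3F3, and the third 6 members in 145 kb at chr19:5394843-5539740, nearest ZNRF4. The member with the highest CHD8 fold in the largest group, at chr9:129496056-129497044, had its summit 136 bp from a transcript start of the lncRNA LINC00963.

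The labelled cell type was checked only by peaks at gene starts, which is not expression. Of 10 neural stem cell markers, 9 had a CHD8 peak at the start and 7 a TRRAP peak. The counts were 2 and 2 of 5 for pluripotent cell markers, 1 and 1 of 5 for neuronal markers, and 0 of 5 for markers of mesoderm or endoderm in both lists. The share of all coding starts with a peak was not set beside these counts, so they cannot establish the cell type.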

How the data were processed

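The 2 peak lists, CHD8 and TRRAP, were made by the authors from 1 library each. HISAT2, MACS2 2.1.1.20160309 and the build GRCh38 are named per the submitters' processing notes, and the control and filters are not given in the sources used here. Each deposited peak carries a fold (a ratio over background), a −log10 p and −log10 q value, and a score; in both lists the score was the −log10 q times 10, cut to a whole number. Read depth is unknown. The file names state a false discovery rate of 0.0001 for CHD8 and of 0.001 for TRRAP.

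From these, peaks were compared with GENCODE 44, RefSeq GRCh38.p14 and the GRCh38 sequence. Coordinates count from 1. Centromere regions were runs of 100-kb bins with a median of at least 5 copies of 32-base words, joined within 1 Mb, with adjoining gaps of at least 1 Mb. Grid windows were laid every 10 kb under the same rule on genes, outside centromere and end regions, and their copy number was not filtered. Shares carry Wilson and differences Newcombe 95% intervals, for counting error only. The functions were tested on simulated data.

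Members, word lists and gene lists were chosen with earlier results of these data known. Named members were the 5 highest in the CHD8 list per class, the 10 dispersed ones with the best worse-of-both rank, the 3 highest with each of the tRNA pair, E-box and CTCF words, up to 15 nearest to listed genes, the 3 farthest from starts, the 2 on each side of the 1 kb limit and the 3 longest stretches. Others are stated as chosen after values were seen. A repeat sequence and its counts are not reported here. Python 3.11.15, numpy 2.4.6, pandas 2.3.3, scipy 1.17.1, pysam 0.24.0, numba 0.67.0 and matplotlib 3.10.9 were used.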

Additional observations from a re-analysis of the deposited data

How the results depend on the processing

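With 1 library per antibody, variation between experiments is not covered by any interval, and leaving out a replicate was not possible. No paired analysis was possible because each antibody had 1 library. Exact words miss sites with a mismatch, and read depth, which limits how many weak peaks were called, is unknown. Of 222 alternative values, 177 stayed within 1.5 times the main count or within the main interval. Restriction to the top 50% of both lists gave 917 peaks, of which 348 were dispersed, 55.6% near centromeres, 2.62% at chromosome ends and 3.82% multi-copy elsewhere. Its dispersed members had medians of 12.4 (CHD8 fold), 11.04 (TRRAP fold) and 47 bp between summits, and 31.6% were CpG-rich. Summits within 200 bp gave a median summit distance of 49 bp, a value that this setting itself limits. A start window of 500 bp gave 39.2% near centromeres and a median of 9502 bp to the nearest start, and 2500 bp gave 45.3% and 15214 bp. Excluding gene bodies of every biotype gave 50.4% near centromeres and 4.13% multi-copy elsewhere. End distances of 500 kb and 1 Mb gave end shares of 2.53% and 3.41%. With 250 bp on each side, 25.5% of dispersed members were CpG-rich.

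The excess of dispersed members over background, in percentage points, moved with the window and the background. With 250 bp on each side it was 4.66 for the E-box, 25.8 for CAGCTG, 1.26 for E2F, 6.70 for ETS, 4.13 for NRF1, 3.64 for CTCF, −19.3 for NFY, 12.01 for SP, −1.41 for POU and −12.4 for the homeobox word. Against the members' own flanks 1 kb away it was 0.75 for the E-box, 2.56 for ETS, −7.21 for NFY and −3.11 for the homeobox word. At the TRRAP summit POU reversed, from −0.57 to 0.13. In windows of 50 to 65% GC, an alternative chosen after seeing the data, it was 0.52 for the E-box, 9.62 for CAGCTG, 0.68 for NRF1, −3.64 for NFY, 2.80 for SP and 7.73 for SOX. There CTCF reversed to −0.17, POU to 1.45 and the homeobox word to 0.066. The cause of these changes was not tested. Under further splits, also added after seeing the data, the SOX difference from CHD8 peaks without TRRAP ran from 1.32 to 5.59 points. The lowest value was among peaks up to the median CHD8 fold, with an interval that included 0 (−1.15 to 4.36). The highest was among peaks above it. Defining tRNA sites by RefSeq genes gave 1.90% of dispersed members in place of 0.100% by the pair of words.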
